A study of Mus musculus with 6 samples.

Results

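The transcripts of 10 immune checkpoint and costimulatory ligands that tumour cells can carry were examined in parental 4T1 cells and in an axitinib-resistant line derived from them. The 10 genes form a list of ligands by function, drawn up with earlier results of these data known, and were looked up by symbol among the 53465 genes of the count table. All 10 were found, and 7 of them had enough counts to be tested. 4T1 cells come from a mouse mammary carcinoma and spread from the mammary fat pad in Balb/c mice. RNA sequencing covered 3 libraries of the parental line (P) and 3 of the axitinib-resistant line (AxR). AxR cells were grown out of metastatic lesions of mice given 100 mg/kg/day of axitinib, which blocks the kinases of VEGF receptors, and were then kept in culture with 0.5 μM axitinib for over 2 months. P cells were vehicle-treated by the study's methods, although the growth label names 0.5 μM axitinib for all 6 samples. Neither the labels nor the methods say whether AxR is a single clone or whether the 3 libraries of a line came from separate cultures, so p-values measure only the spread between these libraries. The drug, passage through an animal and time in culture differ together between the lines, and their parts cannot be told apart.

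Checkpoint ligands are surface or secreted proteins that set how strongly T cells, natural killer cells and macrophages respond to the cell that carries them. PD-L1 (Cd274) and PD-L2 (Pdcd1lg2) bind PD-1 on T cells and dampen their activity, and their genes lie side by side on chromosome 19. CD80 and CD86 bind CD28, which activates T cells, or CTLA-4, which restrains them. The B7 family members Cd276 and Vtcn1 are mostly known as inhibitors of T cells. PVR and Nectin-2 bind the activating receptor CD226 and the inhibitory receptor TIGIT, CD47 tells macrophages not to engulf the cell through SIRPα, and galectin-9 (Lgals9) binds TIM-3. Tumour cells often carry PD-L1 and CD47, and interferon gamma raises PD-L1 through IRF1.

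Of the 7 tested ligands, 5 were higher and 2 lower in AxR than in P cells (edgeR quasi-likelihood test, Benjamini-Hochberg adjusted over all 13550 genes tested, adjusted p under 0.05). Among all genes tested, 32.8% were higher and 30.8% lower by the same rule, so that a call in either direction was common. Those higher were Cd47, Lgals9, Cd274, Nectin2 and Vtcn1, and those lower were Cd276 and Pvr. A rise of at least 1 on the log2 scale was called for 4 ligands, against 7.99% of all genes tested. In each of the 7 tested ligands all AxR libraries lay on 1 side of all P libraries, where 68.3% of all genes were separated in this way. The exact permutation test (two-sided) of each single ligand gave p = 0.1, and 3 libraries against 3 cannot give less. The median log2 fold change of the 7 tested ligands was 1.11, and that of all genes tested was 0.006. As the list was drawn up with results known, these counts and medians are a description. Vtcn1 passed the low-count filter through its AxR libraries only, and had to differ for that reason. Pdcd1lg2, Cd80 and Cd86 did not pass the filter, and their levels are given instead. In bulk RNA, fewer cells that carry a transcript and less of it per cell cannot be told apart.

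**Figure D1:**
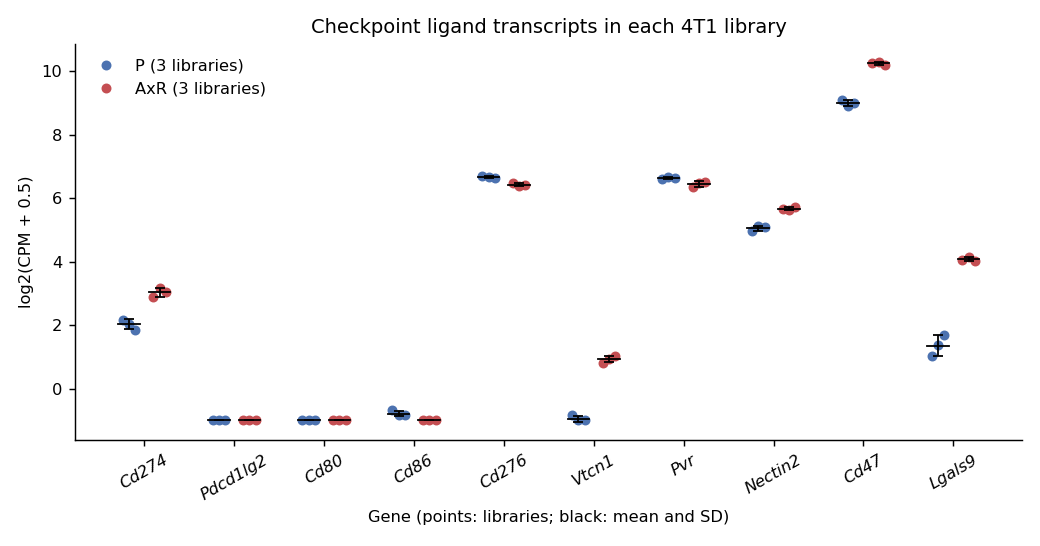
The level of each of the 10 ligands in each library, as log2 of CPM (counts scaled to a common normalised library size) plus 0.5, for P cells in blue and AxR cells in red, with the mean and SD of 3 libraries in black. Cd47 lies highest in both lines, Lgals9 and Vtcn1 lie well above P cells in the AxR libraries, and Pdcd1lg2 and Cd80 lie at 0 CPM throughout.

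**Figure D2:**
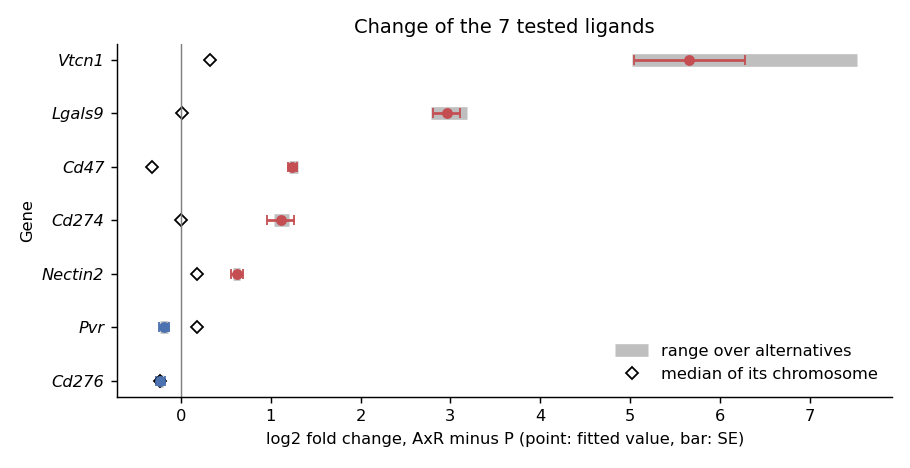
The log2 fold change (AxR minus P) of the 7 tested ligands, with the standard error as a bar, the range over the processing alternatives in grey and the median of all tested genes of the same chromosome as an open diamond. The values run from -0.23 for Cd276 to 5.66 for Vtcn1, and Cd276 lies on the median of its chromosome.

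Cd47 was the most abundant of these transcripts in both lines. In P replicates 1 to 3 it had 546, 478 and 514 CPM (counts scaled to a common normalised library size), and in AxR replicates 1 to 3 it had 1220.2, 1253 and 1173 CPM. All AxR libraries lay far above all P libraries. The mean rose from 513 ± 34.0 to 1215 ± 40.3 CPM (SD, n = 3 each). The log2 fold change of Cd47 was 1.24 (SE, its standard error, 0.054; adjusted p = 4.88e-11 by edgeR), which is a 2.37-fold level. Between 7881 and 20618 counts per library stood behind these values, so counting error was small. Cd47 (ENSMUSG00000055447.18) lies on the plus strand of GRCm38 at chr16:49800533-49915010.

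The genes around Cd47 were also higher in AxR cells, on a chromosome that was lower as a whole. The median log2 fold change on chromosome 16 was -0.32 (397 tested genes), which places Cd47 1.57 above it. Within 1 Mb of the start of Cd47, 7 other genes were tested. Of these, 6 were called higher by edgeR, and the remaining one, Gm9575, had a log2 fold change of -0.16 and was not called. Their median log2 fold change was 1.23. Of all genes tested, 32.8% were called higher. The nearest on each side, Ift57 and Bbx, had log2 fold changes of 1.23 and 0.46 (adjusted p = 2.95e-10 and 7.14e-06 by edgeR). G730013B05Rik, Dzip3, Cip2a and Dubr, named after their values were seen, had log2 fold changes of 4.31, 1.58, 1.88 and 0.81. The part of this neighbourhood in the rise of Cd47 was not tested.

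**Figure D3:**
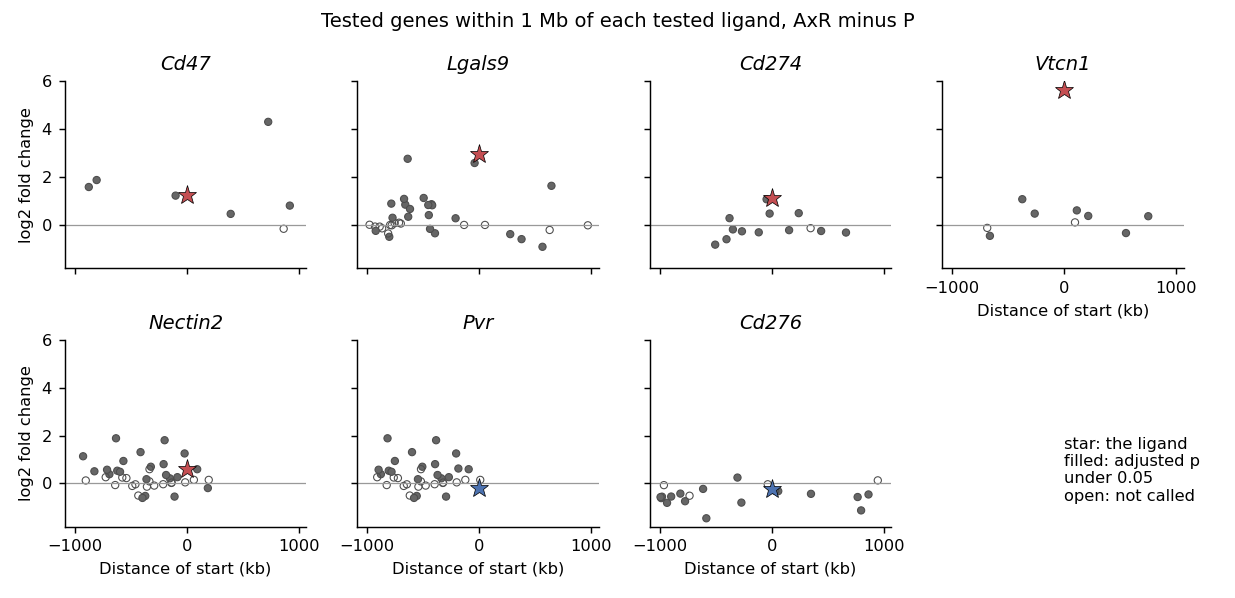
The log2 fold change (AxR minus P) of every tested gene whose first base lies within 1 Mb of that of each tested ligand, against the distance in kb, with the ligand as a star, genes called at an adjusted p under 0.05 filled and others open. Around Cd47 6 of 7 genes are called higher, while around Cd276 15 of 21 are called lower. Of all genes tested, 32.8% are called higher and 30.8% lower. Vtcn1 lies far above all 9 of its neighbours.

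Lgals9, which encodes galectin-9, had the largest rise among the ligands with counts in every library of both lines. It had 1.52, 2.08 and 2.74 CPM in P replicates 1 to 3 and 16.2, 17.3 and 15.8 CPM in AxR replicates 1 to 3. No AxR library came near the P range, and the P libraries themselves differed by more, relative to their mean, than the AxR libraries did. Its log2 fold change was 2.96 (SE 0.15, adjusted p = 3.53e-10 by edgeR), a 7.80-fold level, and 98.6% of all tested genes had a lower log2 fold change. Lgals9 (ENSMUSG00000001123.15) lies on the minus strand at chr11:78962974-78984946, where the median of 1046 tested genes of the chromosome was 0.01. Of 36 other genes tested within 1 Mb, 15 were higher and 7 lower, against 32.8% and 30.8% of all genes tested. The median log2 fold change of the 36 was 0.03. The nearest gene, Nos2, which encodes the inducible nitric oxide synthase, had a log2 fold change of 2.59 (adjusted p = 7.36e-05 by edgeR), and Ksr1 on the other side had 0.00 (adjusted p = 1).

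Cd274, which encodes PD-L1, was expressed at a low level in P cells and rose in AxR cells. Its P libraries had 4.01, 3.64 and 3.13 CPM and its AxR libraries 6.92, 8.55 and 7.85 CPM, from 48 to 66 and from 109 to 138 counts. The lines did not overlap, and the lowest AxR library was well over the highest P library. With a log2 fold change of 1.11 (SE 0.15, adjusted p = 9.13e-06 by edgeR), Cd274 reached a 2.16-fold level. Cd274 (ENSMUSG00000016496.7) lies on the plus strand at chr19:29367455-29388095, where the median of the 441 tested genes of the chromosome was 0.00. The 13 other tested genes within 1 Mb had a median log2 fold change of -0.22. Of these, 4 were higher and 8 lower, against 32.8% and 30.8% of all genes tested. Jak2, a kinase of the interferon receptors, was among these 13 genes, at -0.31. The nearest tested gene on each side, Plgrkt and Ric1, had log2 fold changes of 0.47 and -0.22. Insl6, which lies closer than Ric1 and was named after its value was seen, had 1.07, near that of Cd274.

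Pdcd1lg2, the neighbour of Cd274 that encodes PD-L2, was at 0 counts in all 6 libraries, and so was Cd80. A count of 0 allows up to 3 counts, which corresponds to between 0.171 and 0.196 CPM in a library, for counting error only. Cd86 had 2, 1 and 1 counts in P replicates 1 to 3 and 0 in each AxR library, all at or under that floor, so no fold is given. A difference in these 3 ligands was not detectable at this depth, and of the PD-1 ligands only Cd274 was detected.

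The promoter windows of Cd274 and Lgals9 are shown because they were the only ones among the 8 ligands with a RefSeq window that held the core letters of an interferon response element. Each window runs from 250 bases before to 50 bases after a RefSeq start (GRCm38.p6), 5′ to 3′ on the strand of the gene, and capitals mark the core. The letters searched on both strands were GAAANNGAA, which 8.56% of all 32851 windows hold. The matches read on the other strand in each case, from position -76 to -68 in Cd274 and from -54 to -46 and 17 to 25 in Lgals9, counted from the start base as 1 with no position 0. The window of Cd47, the most abundant ligand, is shown for contrast and holds no match, so that all of it is in lower case. It lies within the GENCODE gene, whose first transcript starts upstream of the RefSeq start. A match is a description of the letters and does not show binding.
Cd274 promoter, chr19:29367188-29367487, plus strand: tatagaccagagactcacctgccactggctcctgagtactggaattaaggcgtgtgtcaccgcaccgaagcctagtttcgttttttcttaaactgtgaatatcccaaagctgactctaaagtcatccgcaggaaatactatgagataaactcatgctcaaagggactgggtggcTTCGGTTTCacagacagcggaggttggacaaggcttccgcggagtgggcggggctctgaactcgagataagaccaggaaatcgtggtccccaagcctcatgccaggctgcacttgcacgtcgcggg
Lgals9 promoter, chr11:78984875-78985174, minus strand: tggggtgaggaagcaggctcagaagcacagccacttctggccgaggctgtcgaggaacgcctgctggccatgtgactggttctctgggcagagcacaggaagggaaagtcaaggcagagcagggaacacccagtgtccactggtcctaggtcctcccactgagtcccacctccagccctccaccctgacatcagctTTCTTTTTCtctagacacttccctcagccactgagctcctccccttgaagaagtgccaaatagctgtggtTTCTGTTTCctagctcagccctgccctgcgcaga
Cd47 promoter, chr16:49855404-49855703, plus strand: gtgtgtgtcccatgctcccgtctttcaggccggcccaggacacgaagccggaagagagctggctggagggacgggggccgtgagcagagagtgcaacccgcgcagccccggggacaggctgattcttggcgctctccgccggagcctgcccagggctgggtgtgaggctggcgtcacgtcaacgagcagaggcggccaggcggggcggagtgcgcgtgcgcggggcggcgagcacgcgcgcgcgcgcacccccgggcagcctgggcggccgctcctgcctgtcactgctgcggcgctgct
In none of the 8 ligands with a window were the GAS letters TTCNNNGAA, known as an interferon gamma activated site and held by 8.30% of all windows, or the E-box CACGTG, held by 7.15%, present. The GC box GGGCGG, held by 35.7% of all windows, was in those of Cd274, Cd276, Cd47 and Nectin2. The share of G and C was 74.0% in the Cd47 window, 58.0% in that of Lgals9 and 52.7% in that of Cd274.

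Vtcn1, which encodes the inhibitory ligand B7-H4, was at the floor in P cells and detected in each AxR library. It had 1, 0 and 0 counts in P replicates 1 to 3 and 20, 22 and 27 counts in AxR replicates 1 to 3, the latter being 1.27, 1.40 and 1.54 CPM. Summed over the libraries of a line, 69 counts in AxR cells and 1 in P cells give a ratio of 69.1 per normalised library size, with a 95% exact (Clopper-Pearson) interval from 12 to 2770 for counting error only. As Vtcn1 passed the low-count filter through its AxR libraries only, its edgeR p-values are no support and are left out. The fitted log2 fold change was 5.66 (SE 0.62 by edgeR). This size rests on the single count in P replicate 1, and without that library it was 7.53. Even in AxR cells the level per kb of exon was low, 0.535 ± 0.0507 CPM per kb (SD, n = 3). Vtcn1 (ENSMUSG00000051076.8) lies on the plus strand at chr3:100825459-100896922, where the 717 tested genes of the chromosome had a median log2 fold change of 0.32.

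The 5 genes whose profile over the 6 libraries was most like that of Vtcn1 were Apol9b, Csprs, Tmem159, Phactr1 and Ogn. Likeness was the root mean square difference between log2 CPM profiles, each centred on its own mean, and lay between 0.14 and 0.22. As the 6 libraries fall into 2 lines, these are mainly genes with a rise of like size on that scale. Apol9b rose from 4.88 to 53.9 CPM and Ogn from 0.858 to 12.7 CPM. Apol9b and Csprs had counts that were not whole in 6 and 4 libraries and may share reads with near-identical copies, so their levels are uncertain.

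Nectin2 and Pvr, which lie near each other on chromosome 7 and bind overlapping receptors, moved in opposite directions. Nectin2 had 30.7, 34.2 and 33.4 CPM in P replicates 1 to 3 and 50.5, 48.8 and 52.2 CPM in AxR replicates 1 to 3. Pvr had 96.9, 102 and 99.1 CPM in P replicates and 81.5, 87.9 and 91.1 CPM in AxR replicates. For both genes the lines did not overlap, and the gap was wide for Nectin2 and narrow for Pvr. The log2 fold change was 0.62 for Nectin2 (SE 0.067, adjusted p = 1.00e-06 by edgeR) and -0.19 for Pvr (SE 0.056, adjusted p = 0.00688 by edgeR). The ratio of Pvr to Nectin2 counts within a library, into which no normalization enters, was between 2.96 and 3.16 in P libraries and between 1.61 and 1.80 in AxR libraries. Nectin2 (ENSMUSG00000062300.14) lies at chr7:19716644-19750483 and Pvr (ENSMUSG00000040511.14) at chr7:19903578-19921160, both on the minus strand. The median log2 fold change of the 1011 tested genes of chromosome 7 was 0.18, so that Pvr was 0.37 below and Nectin2 0.45 above it.

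Cd276, which encodes B7-H3, was the second most abundant ligand per length and was slightly lower in AxR cells. Its P libraries had 102, 102 and 98.9 CPM and its AxR libraries 89.3, 82.9 and 85.8 CPM, without overlap. The log2 fold change was -0.23 (SE 0.052, adjusted p = 0.00113 by edgeR). Cd276 (ENSMUSG00000035914.11) lies on the minus strand at chr9:58524298-58555437. Its change was the same as the median of the 757 tested genes of chromosome 9, -0.23. The 21 other tested genes within 1 Mb had a median log2 fold change of -0.51. Of these, 15 were lower, against 30.8% of all genes tested. The counts of Cd276 were not whole in 6 libraries and those of Nectin2 in 3, as reads shared with other genes were divided by likelihood, while those of the other 8 ligands were whole. Cd276, Pvr, Nectin2 and Pdcd1lg2 each overlap a gene of the opposite strand in the count table, of which none had more than 20.2 counts in a library, and Cd274 overlaps an antisense gene that is not in it.

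Levels of different ligands were compared per kb of exon. In P cells the order was Cd47 (81.7 ± 5.42 CPM per kb), Cd276 (27.6 ± 0.518), Pvr (16.2 ± 0.431), Nectin2 (9.39 ± 0.532), Cd274 (0.992 ± 0.122) and Lgals9 (0.988 ± 0.286), each as mean ± SD of 3 libraries. Cd274 and Lgals9 overlapped and could not be ordered in P cells, and Cd86, Vtcn1, Pdcd1lg2 and Cd80 were at or under the floor. In AxR cells the order was Cd47 (194 ± 6.42 CPM per kb), Cd276 (23.5 ± 0.874), Nectin2 (14.5 ± 0.475), Pvr (14.2 ± 0.803), Lgals9 (7.69 ± 0.356), Cd274 (2.15 ± 0.225) and Vtcn1 (0.535 ± 0.0507). Nectin2 and Pvr overlapped there, whereas Lgals9 was above Cd274 in each AxR library. The summed level of the 10 ligands was between 133 and 142 CPM per kb in P libraries and between 250.3 and 262 in AxR libraries.

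Cd47 made up most of that sum in both lines. Its share was 59.6% ± 2.00 in P and 75.6% ± 0.842 in AxR cells (SD, n = 3 each), from 57.5% to 61.5% and from 74.7% to 76.3%. The share of Cd276 was 20.2% ± 0.706 in P and 9.18% ± 0.456 in AxR cells, and that of Pvr 11.9% ± 0.705 and 5.54% ± 0.383. Cd274 held 0.724% ± 0.0810 in P and 0.837% ± 0.0822 in AxR cells, with libraries that overlapped between the lines, although its own level rose. The share of Lgals9 was 0.724% ± 0.217 in P and 3.00% ± 0.0783 in AxR cells.

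**Figure D4:**
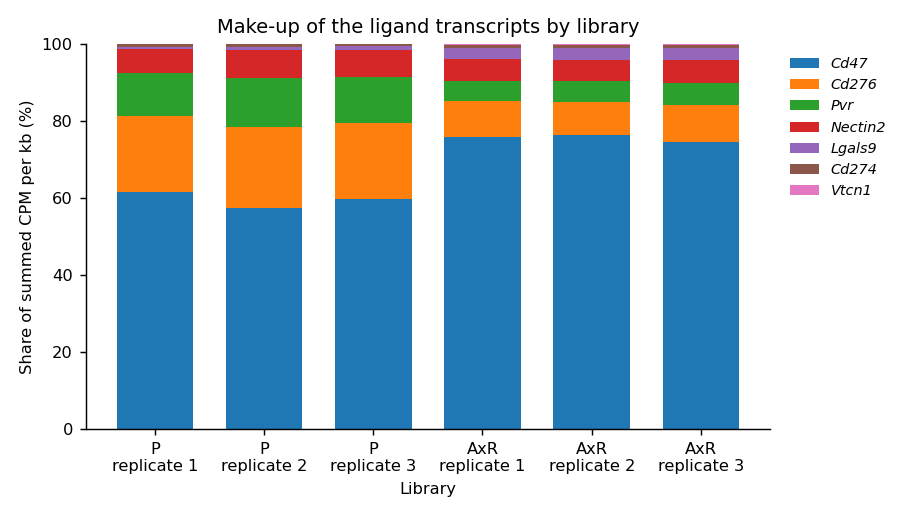
The share of each ligand in the summed CPM per kb of the 10 ligands, in percent, as 1 stacked bar per library. Cd47 takes between 57.5% and 61.5% in P libraries and between 74.7% and 76.3% in AxR libraries, and the shares of Cd276 and Pvr are smaller in AxR libraries.

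Other ligands of the same kind were called in both directions, at shares close to those of all genes tested (32.8% higher and 30.8% lower). Of 22 such genes, 13 were tested, 5 were higher and 4 lower past the threshold in edgeR, and their median log2 fold change was 0.11. Vsir, which encodes the inhibitory ligand VISTA, rose from 0.738 ± 0.142 to 7.27 ± 0.606 CPM (SD, n = 3 each), for a log2 difference of 3.30 (adjusted p = 2.13e-09 by edgeR). It lies within Cdh23 on the opposite strand, which had up to 77 counts in a library, and whether the counting used strand is not stated. H2-T23, whose product Qa-1 is read by the inhibitory receptor NKG2A, had a log2 fold change of 2.44, and Tnfrsf14, the ligand of BTLA, of 2.30. Among the adhesion molecules related to Nectin-2, Nectin3 fell from 81.3 ± 3.59 to 20.2 ± 1.32 CPM (SD, n = 3 each), for a log2 difference of -2.01 (adjusted p = 4.35e-12 by edgeR). Nectin1 fell by 0.95 on the log2 scale (adjusted p = 3.61e-08), and Cd40, a receptor that licenses antigen presentation, by 1.54 (adjusted p = 0.00165, both by edgeR). Tnfrsf14 passed the low-count filter through its AxR libraries only and Cd40 through its P libraries only, so both had to differ. Vsir also needed its AxR libraries to pass, as its lowest P library, at 0.577 CPM, fell short. With at least 10 counts asked for in every library, Vsir was kept and its log2 fold change was 3.30. The counts of H2-T23 were not whole in 4 libraries.

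**Figure D5:**
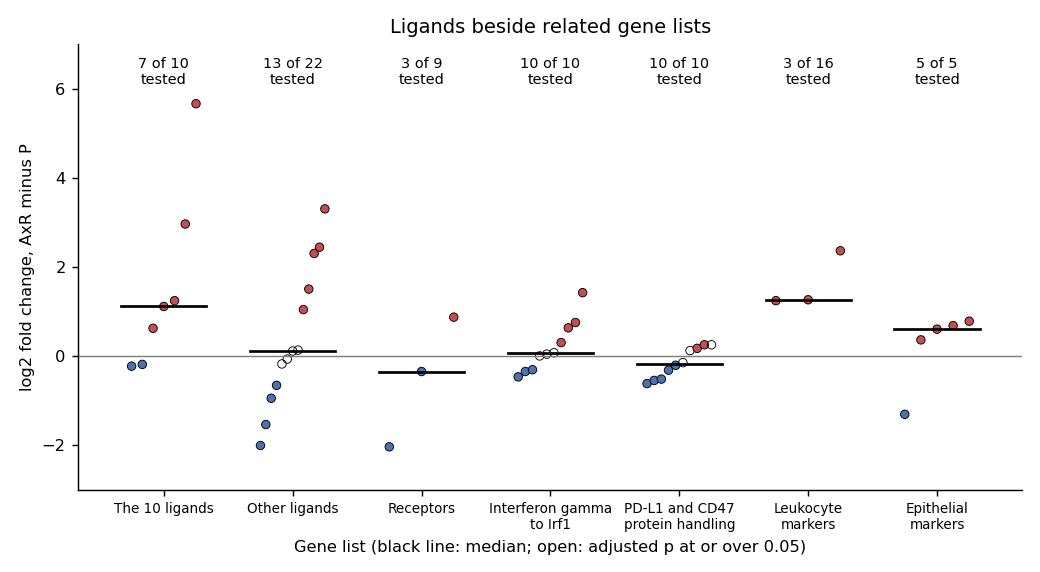
The log2 fold change (AxR minus P) of each tested gene in 7 gene lists, with genes higher at an adjusted p under 0.05 in red, lower in blue and others open, the median as a black line, and the number tested of the number listed above. The medians are 1.11 for the 10 ligands, 0.11 for other ligands, -0.35 for receptors, 0.05 for the interferon gamma route, -0.18 for protein handling, 1.26 for leukocyte markers and 0.60 for epithelial markers.

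The receptors of these ligands belong to immune cells and were mostly not detected. Of 9 receptor genes, 5 had at most 3 counts in every library, Cd28 had at most 5, and 3 were tested, with 1 higher and 2 lower and a median log2 fold change of -0.35. By the same rule 32.8% of all genes tested were higher and 30.8% lower. Sirpa, the receptor of CD47, which other cells also make, rose from 16.2 ± 1.19 to 29.6 ± 0.969 CPM (SD, n = 3 each), for a log2 difference of 0.87 (adjusted p = 1.49e-07 by edgeR). Tigit, the inhibitory receptor of PVR on T and natural killer cells, had 53.8 ± 6.14 CPM in P and 42.4 ± 4.58 CPM in AxR cells (SD, n = 3 each), for a log2 difference of -0.35 (adjusted p = 0.00469 by edgeR). The T cell gene Cd3e and the natural killer cell gene Ncr1 had no count in any library, and no annotated gene overlaps Tigit. Havcr2, which encodes TIM-3, the receptor of galectin-9, was at 1.28 ± 0.0646 CPM in P and 0.309 ± 0.0779 CPM in AxR cells (SD, n = 3 each), with a log2 difference of -2.04 (adjusted p = 0.000140 by edgeR). Havcr2 passed the low-count filter through its P libraries only, and had to differ for that reason.

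Genes that carry or restrain the interferon gamma signal toward PD-L1 were called in both directions. Their shares were close to those of all genes tested (32.8% higher and 30.8% lower). All 10 listed genes were tested, 4 were higher, 3 lower and 3 not called, and the median log2 fold change was 0.05. The list mixes both kinds, so its counts and median give no direction for the route. Irf1, the transcription factor at the end of this route, rose from 31.2 ± 1.70 to 83.9 ± 5.57 CPM (SD, n = 3 each), for a log2 difference of 1.42 (adjusted p = 1.30e-10 by edgeR). Ifngr1, a chain of the interferon gamma receptor, rose by 0.63 on the log2 scale. Ifngr2, Stat3 and Jak2 fell by 0.47, 0.35 and 0.31 (adjusted p from 1.25e-05 to 0.000227 by edgeR).

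Among 10 genes whose products stabilise, degrade, shed or modify PD-L1 or CD47 protein, 2 were higher, 5 lower and 3 not called. Their median log2 fold change was -0.18, and of all genes tested 32.8% were higher and 30.8% lower. Cmtm6, which keeps PD-L1 at the cell surface, fell from 90.2 ± 4.93 to 61.7 ± 4.11 CPM (SD, n = 3 each), for a log2 difference of -0.55 (adjusted p = 2.20e-06 by edgeR), while Cd274 itself rose. Hip1r, which sends PD-L1 to the lysosome, and Cul3, a subunit of the ligase that degrades it, fell by 0.62 and 0.52 on the log2 scale. Adam17, a protease that can shed PD-L1, rose by 0.25. Stub1 had a log2 fold change of 0.17 with an adjusted p of 0.0404 by edgeR, which was between 0.0344 and 0.139 over its alternatives. The counts of Adam17 were not whole in 5 libraries and those of Stub1 and Hip1r in 6. RNA sequencing does not measure protein.

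The labelled cell type was checked against markers, since leukocytes can also carry several of these ligands. Of 5 epithelial markers, 4 were higher and 1, Krt19, lower in AxR cells, and their summed level was between 1542 and 1704 CPM in P and between 2317 and 2405 CPM in AxR libraries. Of 16 leukocyte markers, 3 were tested and all 3 were higher. For both marker lists the background is 32.8% higher and 30.8% lower among all genes tested. The summed level of the 16 was between 12.2 and 14.2 CPM in P and between 43.4 and 52.4 CPM in AxR libraries. Cd74, Cd68 and Cd14 made up nearly all of it, with log2 fold changes of 2.36, 1.24 and 1.26. The defining markers Tyrobp, Fcer1g, Adgre1, Cd3e and Ncr1 had no count in any library, and Ptprc had at most 2. Of 6 fibroblast and 5 endothelial markers none was tested, and their summed level was at most 1.02 and 0.635 CPM in a library.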

How the data were processed

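The authors sequenced stranded mRNA libraries of 4T1 P and AxR cells, 3 per line, with groups and replicate numbers taken from the sample titles. By the study's methods and processing notes, read quality was checked with FastQC 0.11.5, reads were aligned to GRCm38 (GENCODE M16) with STAR 2.6.0a, and genes were quantified with RSEM 1.3.1. The authors deposited RSEM's estimated counts per gene, before filtering and normalization. RSEM divides reads that match several genes, which left 10.3% to 10.7% of a library's genes with values that are not whole. Libraries held between 15495260 and 17294525 estimated counts.

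Estimated counts were rounded, low rows were removed by filterByExpr, and upper-quartile factors were used in edgeR 4.0.16 (R 4.3.3), whose quasi-likelihood F test compared the lines with robust dispersions and no covariate. Benjamini-Hochberg adjustment ran over 13550 genes, and an adjusted p under 0.05 counted as a call. The standard error is the log2 fold change divided by the square root of F. Log2 CPM used a prior count of 2, and permutation tests a pseudocount of 0.5. The floor was 3 counts. Symbols, positions and exon lengths came from GENCODE M21 on the same build, in which 53360 identifiers were found. Promoters came from RefSeq on GRCm38.p6. Replicates of a line differed by more than counting error (chi-square divided by its degrees of freedom was 4.80 to 18.1).

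The members and gene lists were chosen with earlier results of these data known. All 10 members are named. Of each list, up to 3 genes with the highest and 3 with the lowest log2 fold change past the threshold could be named, and around each tested member the nearest gene on each side. Undetected genes, Gm9575, G730013B05Rik, Insl6, Dzip3, Cip2a, Dubr, Cdh23, Btn2a2, H2-Aa, H2-Ab1, Ptprc and Cd28 are named outside this rule, after their values were seen. The windows of 1 Mb, the shares and the count ratios were also added then. Alternatives were TMM, library size only, DESeq2 1.42.0, limma-voom (limma 3.58.1), other low-count filters, a replicate block and each library left out. The edgeR, DESeq2 and limma-voom fits with the main low-count filter were tested on simulated data, and the other alternatives were not. Far fewer genes were changed in the simulation than were called here, so it does not check the normalization under such wide change. The paper's supplementary values were not used. Some genes of the lists are counted but not reported here by name.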

Additional observations from a re-analysis of the deposited data

How the results depend on the processing

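All 90 refits of the 7 tested ligands kept their direction and their side of the threshold, under TMM, library size only, DESeq2, limma-voom, the other filters, the replicate block and each library left out. Vtcn1 gave no value with at least 10 counts in every library, and 4 ligands were then higher. The refits that Vtcn1 did have are no support for its call, since it passed the low-count filter through its AxR libraries only. A size of at least 1 in log2 fold change, asked for in addition, left 1083 genes higher and 640 lower, and 4 ligands higher and 0 lower (2 by edgeR, DESeq2 and limma without that requirement), which follows from the added criterion. The other 53 refits of these counts stayed within 1.5 times of the values reported. No alternative moved the median of all genes by over 0.021. Of the refits of single genes in the lists, 363 kept their call and 11, all of Stub1, lost it. The 363 include 12 refits each of Tnfrsf14, Cd40 and Havcr2, which are no support for the calls of these genes. Tnfrsf14 passed the low-count filter through its AxR libraries only, and Cd40 and Havcr2 through their P libraries only. The median of the interferon gamma route was 0.04 with TMM and 0.03 with library size only, and ran from 0.01 to 0.11 when single libraries were left out. That of leukocyte markers then ran from 1.20 to 1.42, and that of epithelial markers 0.58 with library size only. The causes were not tested. The other 40 refits of list medians moved by less than 1 SD between AxR libraries.

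Samples with the same replicate number did not deviate together (correlations from -0.022 to -0.006, with 0 of 6 libraries closest to their own number), so the numbers do not pair the samples. With the replicate block 4304 genes were higher and 4023 lower, with 5 ligands higher and 2 lower. Depth limits Pdcd1lg2, Cd80 and Cd86, which were at or under 3 counts in each library, and the size of the change in Vtcn1.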

Other observations

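Cd74, the invariant chain of MHC class II, rose from 5.90 ± 0.142 to 30.2 ± 5.20 CPM (SD, n = 3 each; log2 fold change 2.36, adjusted p = 1.57e-09 by edgeR's quasi-likelihood test). H2-Ab1, a class II chain that was not tested, was at 0.180 CPM on average in P and 0.890 CPM in AxR cells, and H2-Aa, also not tested, had at most 4 counts in a library, with lines that overlapped. Of genes not tested among the other ligands, Btn2a2 had means of 0.703 CPM in P and 0.0425 CPM in AxR cells.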
